A study of Mus musculus with 8 samples.

Results

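Skin that had lost p53 was set against skin that kept it, in 4 microarrays each. The p53-deficient arrays were 2 of p53-null skin (pRb+/+;p53-/-) and 2 of double-null skin (pRb-/-;p53-/-), and the p53-intact arrays were 2 of control skin and 2 of pRb-null skin (pRb-/-;p53+/+). All 8 arrays held whole skin of newborn FVB mice, with RNA pooled from 3 animals of 1 genotype. The series' title places the gene losses in stratified epithelia, so the dermis, blood vessels and immune cells of the same tissue need not have lost either gene. The sources used here give neither the promoter that drove the deletion nor the full genotype of the control mice. Of the 22690 probe sets, 3183 (14.0%) were separated, meaning that all 4 p53-deficient arrays lay on 1 side of all 4 p53-intact arrays. These were 1336 probe sets (5.89%) that were higher and 1847 (8.14%) that were lower in p53-deficient skin.

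Each deposited value is a standardized score, with mean 0 and SD 1 for every probe set over the 8 arrays. A difference below is therefore counted in a probe set's own SDs, the largest that 4 arrays against 4 can reach is 1.87, and neither levels nor fold changes can be given. For the same reason the labelled tissue could not be checked by how strongly its marker genes were expressed. Each probe set is centred on 0, so opposite signs on the 2 sides largely restate a separation and are no further support. The difference called the p53 effect is the mean of the p53-null and double-null means minus the mean of the control and pRb-null means. It is given with its standard error from 4 residual degrees of freedom. A probe set was called, and is said to have risen or fallen, at an adjusted p under 0.05 in limma's ordinary test over all probe sets.

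p53 is a transcription factor that halts the cell cycle or triggers apoptosis after DNA damage, partly by inducing Cdkn1a. pRb, the product of Rb1, holds back entry into S phase by binding E2F factors. Around birth, mouse hair follicles begin to build shafts: matrix cells at the base of the follicle divide, leave the cycle and fill with hair keratins, which keratin-associated proteins then crosslink. The newborn dermis also fills with mast cells, which store proteases and histamine bound to serglycin.

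The sequences just upstream of representative genes are shown because hair shaft genes were the most uniformly separated members and Cdkn1a is the best known p53 target. Each runs 100 bases up to the transcription start in RefSeq's table for GRCm38.p6. In the first 5, capitals mark the TATA motif TATAAA. In Cdkn1a they mark matches to a single p53 binding decamer. Krt25 lies at chr11:99322952-99323051, Krt32 at chr11:100088270-100088369, Krtap16-3 at chr16:88962874-88962973, Krtap6-5 at chr16:89047900-89047999 and Cpa3 at chr3:20242182-20242281, all on the minus strand. Cdkn1a lies at chr17:29090879-29090978 on the plus strand.
Krt25: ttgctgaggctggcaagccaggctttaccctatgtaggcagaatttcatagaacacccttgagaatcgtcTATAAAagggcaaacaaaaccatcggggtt
Krt32: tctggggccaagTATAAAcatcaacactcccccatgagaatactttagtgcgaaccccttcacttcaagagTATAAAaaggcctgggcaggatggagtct
Krtap16-3: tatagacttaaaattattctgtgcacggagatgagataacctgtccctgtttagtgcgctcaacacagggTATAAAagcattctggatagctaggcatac
Krtap6-5: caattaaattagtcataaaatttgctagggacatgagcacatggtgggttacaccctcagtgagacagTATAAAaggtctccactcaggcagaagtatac
Cpa3: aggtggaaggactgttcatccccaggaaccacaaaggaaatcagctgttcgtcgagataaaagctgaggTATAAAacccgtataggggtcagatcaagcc
Cdkn1a: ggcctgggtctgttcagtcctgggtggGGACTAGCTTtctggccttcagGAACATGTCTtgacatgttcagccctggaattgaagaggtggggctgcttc

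TATAAA was searched on both strands of the 250 bases before the start. It occurred in 13 of 19 hair keratin and sheath genes (68.4%) and 21 of 29 keratin-associated protein genes (72.4%) with a sequence. Of all 27025 promoters in the table, 3504 (13%) held it. Lists with members separated higher held it too, with 16 of 36 cornified envelope genes (44.4%) and 5 of 16 mast cell genes (31.2%). It occurred in 7.36% of all genes separated higher, 9.56% of those separated lower and 9.33% of measured genes not separated. Krtap15 and Cma1, described below, have no TATAAA in their last 100 bases. The p53 decamer occurred in 51 of 856 genes separated higher (5.96%), 85 of 1171 genes separated lower (7.26%) and 481 of 7813 measured genes not separated (6.16%). In the whole table the share was 7.18%. In the p53 target lists below, 5 of 14 arrest and feedback genes (35.7%) and 3 of 24 apoptosis and stress genes (12.5%) held it. These matches describe letters in a window and do not show binding.

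The ordinary test called 285 probe sets (1.26%): 110 rose (0.485%) and 175 fell (0.771%) in p53-deficient skin. At an unadjusted p under 0.05 there were 5015 probe sets (22.1%). Of the called probe sets, 258 were also separated and 27 were not, although both measures use the same scores. The number of calls depended on the test: limma's moderated test called 0 with 6117 at an unadjusted p under 0.05, quantile-normalized scores gave 17, and leaving out any 1 array gave 3 to 9. A single adjusted p below is therefore exploratory, and the separation of the arrays is given beside it. Since no label states that both arrays of a genotype came from different pools, the p-values rest on array-to-array spread that may be only technical.

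Arrays of the same genotype correlated at 0.118 to 0.337 over all probe sets, and arrays of different genotypes at −0.388 to 0.0935. The p53-null arrays correlated with the double-null arrays at −0.31 to 0.0935, and the control arrays with the pRb-null arrays at −0.171 to 0.00618. Every probe set is centred over all arrays, which by construction pushes correlations between arrays towards negative values. These values therefore cannot show whether the p53-deficient arrays formed a uniform group. Among 64 array control probe sets, 7 (10.9%) were separated and 0 were called. In 20 of the 64, both control arrays lay below the other 6. The same share over all probe sets was not counted, so whether this is unusual is unknown. The hair, follicle regulator, mast cell and macrophage lists are also given in skin without pRb, where no control array enters. A separated probe set is separated within both pRb backgrounds by definition, so those counts include every separated member. Rb1 scored 0.50 and 0.22 in p53-null and −0.55 and −1.90 in double-null skin, against 1.20 and 0.80 in control and −0.71 and 0.44 in pRb-null skin, a p53 effect of −0.87 ± 0.46 (SE, limma adjusted p = 0.36). The lowest Rb1 score was in a double-null array, but a pRb-null array was close to the p53-null ones. Where its probe set lies relative to the deleted part is unknown. A list of Xist and Y chromosome genes gave 0 separated probe sets of 13. With pRb, both p53-null arrays lay above both control arrays in 3 of the 13 and below them in 7. Over all probe sets the shares were 23.8% and 28.9%. Without pRb the counts were 4 and 5, against 22.1% and 28.1%. The p53 effect was higher without pRb in 4 and lower in 3 at an unadjusted p under 0.05 in limma's ordinary test. Over all probe sets those shares were 4.46% and 6.01%. Whether the pools differed in sex was not tested. Chromosome X as a whole had 45 of 668 (6.74%) separated higher and 38 (5.69%) lower. The median p53 effect of all probe sets was −0.13, and became 0.01 when array medians were set to 0. List medians below should be read against that shift.

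**Figure D1:**
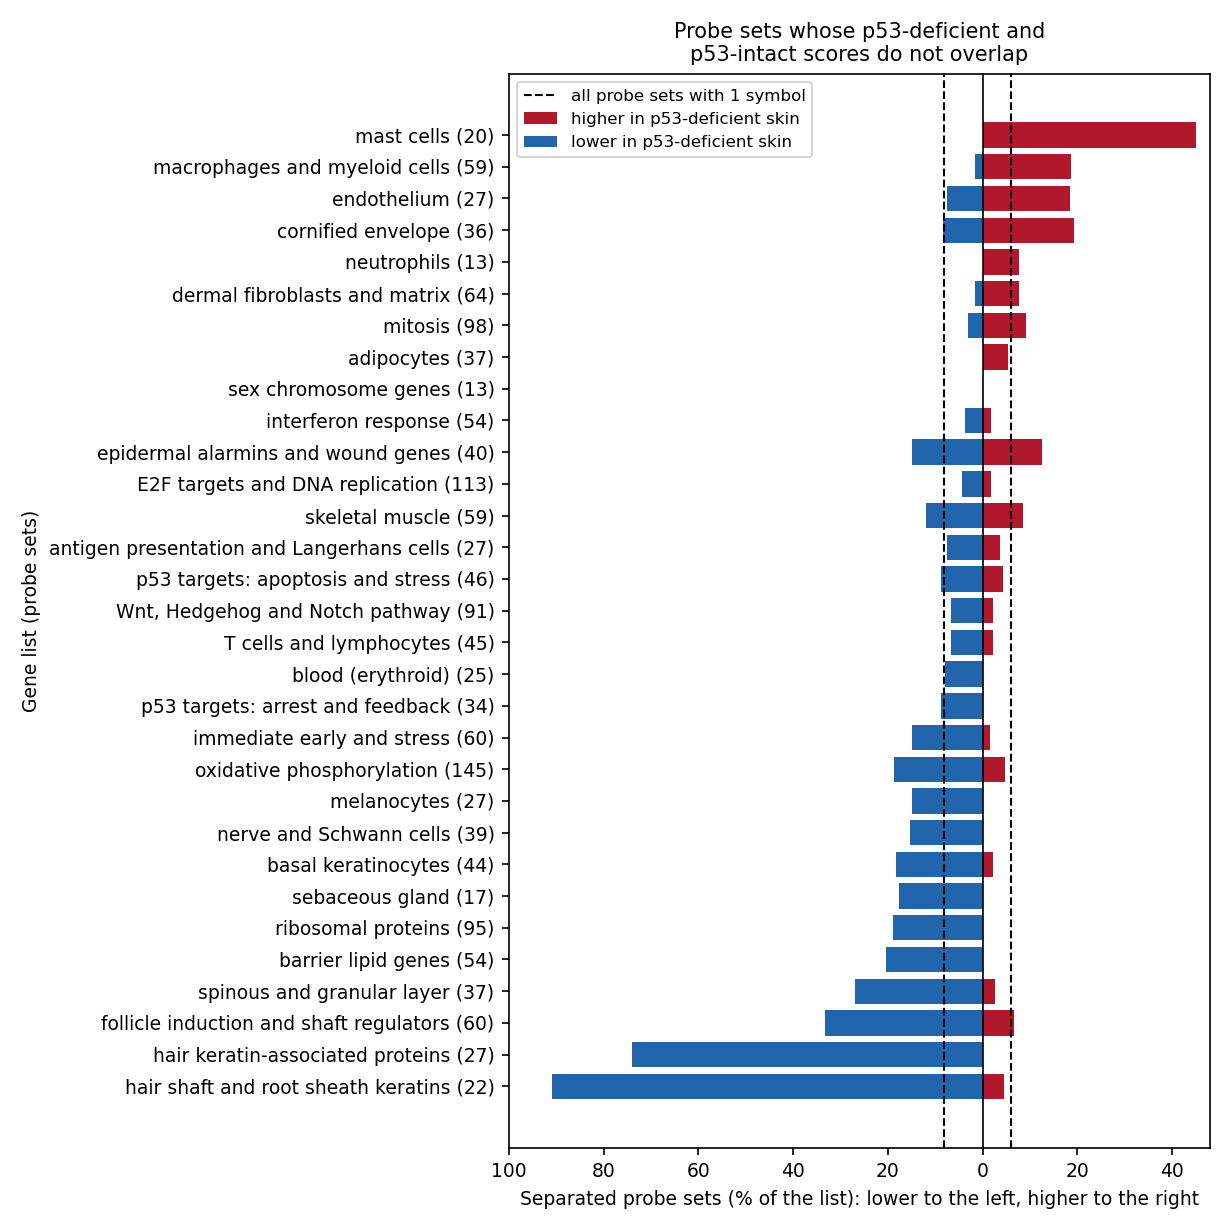
Share of each gene list's probe sets that were separated lower (blue, to the left) or higher (red, to the right) in p53-deficient skin, with the number of probe sets in brackets. Dashed lines give the shares over all probe sets with 1 symbol, 8.14% lower and 5.98% higher. Hair keratins (90.9%) and keratin-associated proteins (74.1%) stand at the lower end and mast cell genes (45.0%) at the higher end.

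Genes of the hair shaft and inner root sheath were lower in all p53-deficient arrays almost without exception. Of 22 probe sets for 22 such genes, 20 (90.9%) were separated lower, against 8.14% of all probe sets, and 17 of them fell. The list's median p53 effect was −1.70, against −0.11 over all probe sets with 1 symbol. In whole skin, fewer hair-forming cells and less RNA per cell cannot be told apart. Its keratins are neighbours on chromosomes 11 and 15 and are similar in sequence, so they are not independent measurements.

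Among type I shaft keratins, Krt35, an early keratin of the hair matrix and cortex, scored −0.24 and −0.26 in p53-null and −1.51 and −1.33 in double-null skin, against 0.85 and 0.96 in control and 0.86 and 0.68 in pRb-null skin. All p53-deficient scores were below 0 and all p53-intact scores above 0. The p53 effect was −1.67 ± 0.067 (SE, limma adjusted p = 0.019). Krt32, a cuticle keratin, scored −0.48 and −0.74 in p53-null and −1.31 and −1.08 in double-null skin, against 0.94 and 1.11 in control and 0.88 and 0.68 in pRb-null skin, and fell by 1.80 ± 0.11 (SE, limma adjusted p = 0.027). The double-null scores were the lowest in both genes. Krt31, Krt33a, Krt33b and Krt34, keratins of the cortex, also fell, with effects of −1.72, −1.69, −1.58 and −1.65.

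The inner root sheath moved with the shaft. Krt25, a sheath keratin, scored −0.11 and −0.02 in p53-null and −1.59 and −1.40 in double-null skin, against 0.78 and 0.95 in control and 0.57 and 0.81 in pRb-null skin. The p53-null arrays lay between the double-null and the p53-intact arrays, nearer the p53-intact ones, and the effect was −1.56 ± 0.091 (SE, limma adjusted p = 0.026). Tchh encodes trichohyalin, which hardens the sheath and medulla. It scored −0.31 and −0.13 in p53-null and −1.38 and −1.48 in double-null skin, against 0.93 and 0.86 in control and 0.59 and 0.91 in pRb-null skin, with an effect of −1.65 ± 0.097 (SE, limma adjusted p = 0.026). Krt71, Krt72 and Krt75 of the sheath and companion layer fell by 1.52, 1.81 and 1.70. Padi3, the deiminase that modifies trichohyalin, and S100a3, a cuticle calcium-binding protein, fell by 1.72 and 1.70.

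Only Krt84 and Tgm3 departed from this. Krt84, a type II hair keratin, scored 0.05 and 0.98 in p53-null and 0.51 and 1.64 in double-null skin, against −1.17 and −1.13 in control and −0.32 and −0.56 in pRb-null skin. It was separated in the other direction, with an effect of 1.59 ± 0.37 (SE, limma adjusted p = 0.13). Tgm3, a transglutaminase shared with the epidermis, was not separated, with an effect of −0.30 ± 0.9 (SE, limma adjusted p = 0.87). Krt27, Krt36 and Krt82 were separated lower without being called, at adjusted p = 0.052, 0.052 and 0.066 in limma's test.

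Keratin-associated proteins, the crosslinking matrix of the shaft, gave the smallest errors. Of 27 probe sets for 22 genes, 20 (74.1%) were separated lower, 0 were separated higher, and 16 fell. The median effect was −1.70. Krtap16-3 had 2 probe sets, and the first scored −0.89 and −0.93 in p53-null and −0.89 and −0.91 in double-null skin, against 1.20 and 1.27 in control and 0.56 and 0.60 in pRb-null skin. The 4 p53-deficient scores differed from each other by less than 0.05, and the control arrays were above the pRb-null arrays. Its effect was −1.81 ± 0.021 (SE, limma adjusted p = 0.0012), and the second probe set gave −1.83 ± 0.044 (SE, limma adjusted p = 0.0094).

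Krtap6-5, a high glycine-tyrosine protein, scored −0.62 and −0.69 in p53-null and −1.21 and −1.09 in double-null skin, against 1.18 and 1.11 in control and 0.68 and 0.64 in pRb-null skin. Its effect was −1.80 ± 0.041 (SE, limma adjusted p = 0.0094), with nearly equal differences in both pRb backgrounds. Krtap15 scored −0.74 and −0.95 in p53-null and −0.96 and −0.98 in double-null skin, against 1.22 and 1.20 in control and 0.58 and 0.63 in pRb-null skin, an effect of −1.82 ± 0.055 (SE, limma adjusted p = 0.014). In both genes all p53-deficient arrays were negative and all p53-intact arrays positive. Krtap19-9b, Krtap19-3 and Krtap13-1 fell by 1.79, 1.75 and 1.80. The 7 probe sets that were not separated belonged to Krtap12-1, Krtap13, Krtap19-1, Krtap5-1 and Krtap5-4. For Krtap19-1 the other probe set was separated lower.

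**Figure D2:**
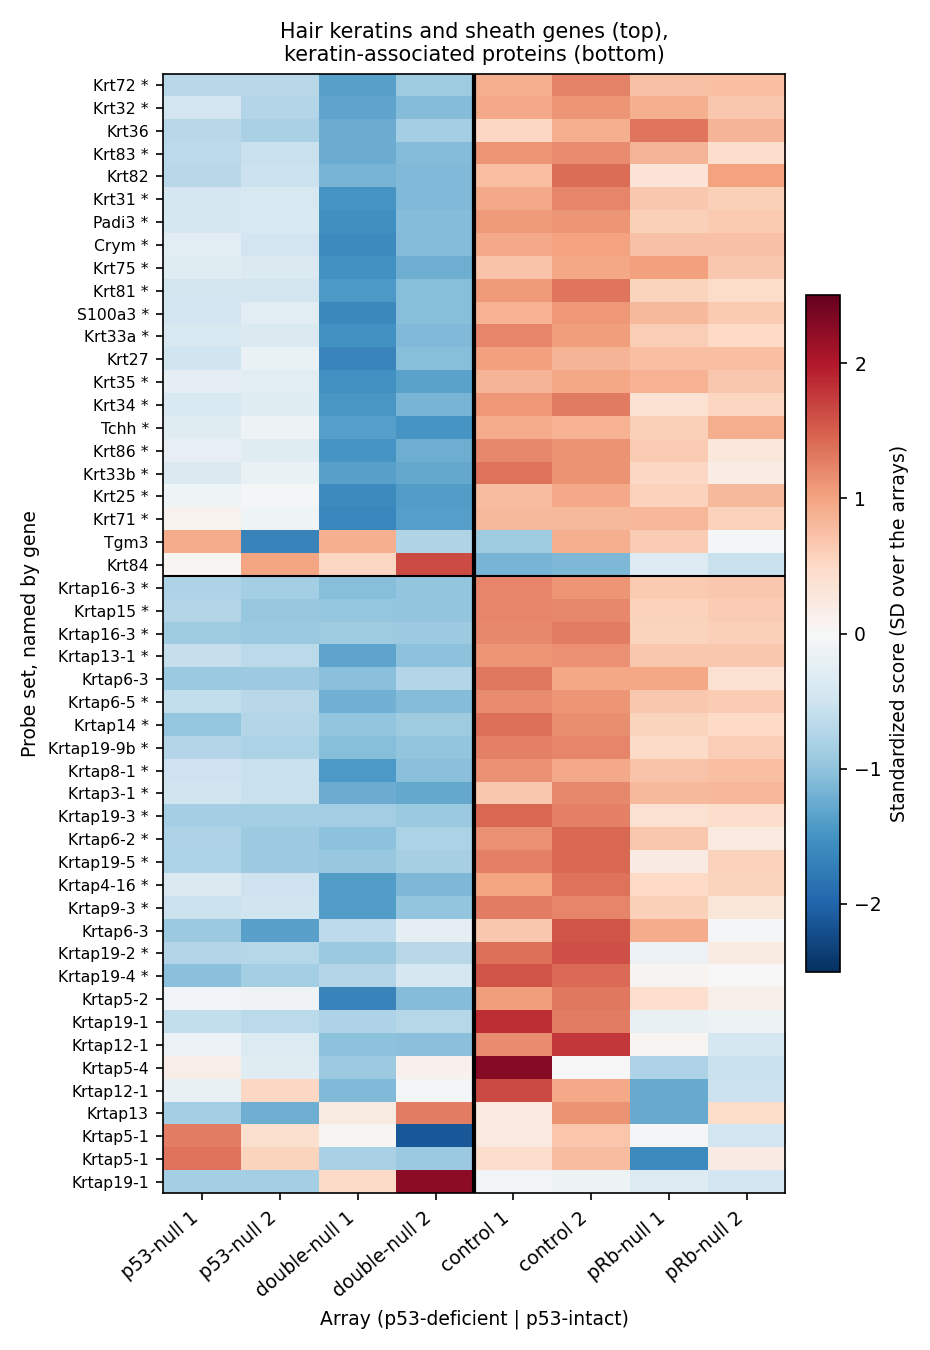
Standardized scores of every measured hair keratin and sheath gene (top) and keratin-associated protein (bottom) in the 8 arrays, with p53-deficient arrays left of the vertical line and p53-intact arrays right of it. Blue is below and red above a probe set's mean, and a star marks a called probe set. Of these 49 rows, 40 are separated lower, and Krt84 alone is separated higher.

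The hair calls rested on all 8 arrays and on the fit. With all arrays kept, quantile normalization, the moderated test and a block for replicate number each called 0 probe sets of both lists. Setting array medians to 0 left 17 keratin and 16 keratin-associated protein probe sets called. An additive model left 12 and 13, and 2 groups of 4 arrays left 3 and 8. With any 1 array left out, 0 or 1 of the 22 keratin probe sets and 1 to 4 of the 27 keratin-associated protein probe sets were called. Within skin without pRb, where no control array enters, 20 and 21 probe sets were lower in both double-null arrays than in both pRb-null arrays, against 28.1% of all probe sets. Within skin with pRb the counts were 20 and 24, against 28.9%.

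Regulators that pattern the follicle and switch on the shaft genes were lower less uniformly. Of 60 probe sets for 39 genes, 20 (33.3%) were separated lower and 4 (6.67%) higher, against 8.14% and 5.98% of all probe sets with 1 symbol, and 4 fell. The median effect was −0.87. Msx2, a homeobox factor of the hair matrix, scored −0.36 and −0.15 in p53-null and −1.53 and −1.30 in double-null skin, against 0.82 and 0.97 in control and 0.86 and 0.69 in pRb-null skin. It followed the keratin pattern, with double-null arrays lowest, and its effect was −1.67 ± 0.095 (SE, limma adjusted p = 0.026). Hr, the hairless corepressor needed for hair regrowth, scored −1.29 and −1.34 in p53-null and −0.52 and −0.34 in double-null skin, against 0.62 and 0.95 in control and 1.09 and 0.84 in pRb-null skin on its separated probe set, an effect of −1.74 ± 0.11 (SE, limma adjusted p = 0.027). Here the p53-null arrays were the lowest. Cux1, a homeobox factor of the sheath, had 3 of 6 probe sets separated lower, and the called one had an effect of −1.74 ± 0.12 (SE, limma adjusted p = 0.027).

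Wnt5a, a signalling ligand of the follicle, scored −0.05 and −0.26 in p53-null and −1.63 and −1.27 in double-null skin, against 0.72 and 0.67 in control and 0.79 and 1.03 in pRb-null skin on its called probe set, an effect of −1.61 ± 0.12 (SE, limma adjusted p = 0.033). Its other probe set was not separated, at −0.22 ± 0.39 (SE, limma adjusted p = 0.78). Sox9 and Lgr5, markers of follicle progenitor cells, were separated lower on every probe set but not called: Sox9 at effects of −1.64 and −1.67 and Lgr5 at −1.80. Dlx3 and Foxn1, transcription factors upstream of hair keratin genes, were separated lower as well, at −1.55 and −1.58 for Dlx3 and −1.55 for Foxn1. Eda, the ligand that starts follicle formation, was separated lower on 1 of 5 probe sets, whereas its receptor Edar, the Wnt inhibitor Dkk1 and 2 of 3 probe sets of Igf1 were separated higher. None of these was called. Without pRb, 36 of the 60 probe sets (60.0%) were lower in both double-null arrays than in both pRb-null arrays, against 28.1% of all probe sets. With pRb the count was 28 (46.7%), against 28.9%.

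Genes of the epidermal layers shifted in part, and not in 1 direction. In whole skin these lists cannot place a difference in the epidermis rather than in the follicles. Of 44 basal keratinocyte probe sets 8 (18.2%) were separated lower and 1 (2.27%) higher, against 8.14% and 5.98% of all probe sets with 1 symbol, and 2 fell. Of 37 spinous and granular ones 10 (27.0%) were separated lower and 1 (2.70%) higher, and 1 fell. Cornified envelope genes had 7 of 36 probe sets (19.4%) separated higher and 3 (8.33%) lower, but the 2 that were called fell. In those 3 lists 0 rose. Notch1, a receptor that promotes keratinocyte differentiation, scored −0.66 and −0.36 in p53-null and −1.35 and −1.14 in double-null skin, against 1.14 and 1.09 in control and 0.53 and 0.74 in pRb-null skin on the probe set that fell, an effect of −1.75 ± 0.11 (SE, limma adjusted p = 0.027). The groups were well apart in both pRb backgrounds, but its other probe set was not separated. Egfr, the epidermal growth factor receptor, fell on 1 of 5 probe sets, by 1.73 ± 0.16 (SE, limma adjusted p = 0.041). Cdh3, the P-cadherin of hair matrix and basal cells, fell by 1.57 ± 0.15 (SE, limma adjusted p = 0.044).

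Sprr1a, a small proline-rich protein of the cornified envelope, scored −0.34 and −0.57 in p53-null and −1.46 and −1.12 in double-null skin, against 0.57 and 0.96 in control and 1.08 and 0.87 in pRb-null skin, and fell by 1.74 ± 0.15 (SE, limma adjusted p = 0.038). The separated higher members were mostly late envelope genes. Lce1a2, Lce1f and Lce1b gave effects of 1.50, 1.63 and 1.51, and repetin (Rptn) gave 1.60, with adjusted p from 0.052 to 0.11 in limma's test. The other probe set of Lce1f, at 0.96, and the 2 others of Rptn, at 0.37 and −0.02, were not separated. The 2 called lower members of the alarmin and wound list were the gap junction genes Gjb6 and Gjb2. Gjb6 scored −1.25 and −1.51 in p53-null and −0.29 and −0.30 in double-null skin, against 0.66 and 0.63 in control and 0.98 and 1.08 in pRb-null skin, an effect of −1.68 ± 0.071 (SE, limma adjusted p = 0.019). The p53-null arrays were lowest and did not come near the p53-intact ones. Its neighbour Gjb2 fell by 1.74 ± 0.14 (SE, limma adjusted p = 0.034).

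Genes for barrier lipids were separated lower in 11 of 54 probe sets (20.4%), against 8.14% of all probe sets with 1 symbol, higher in 0, and 2 fell. The 2 belong to Elovl6, a fatty acid elongase, whose probe sets gave effects of −1.59 ± 0.13 (SE, limma adjusted p = 0.034) and −1.72 ± 0.15 (SE, limma adjusted p = 0.039). In sterol synthesis, Hmgcs1 was separated lower on 1 of 4 probe sets, at −1.82, and Idi1 on both, at −1.65 and −1.66. Of 40 alarmin and wound probe sets, 5 (12.5%) were separated higher and 6 (15.0%) lower, and 2 rose and 2 fell. S100a8, a calcium-binding alarmin of keratinocytes and neutrophils, scored 0.15 and 0.25 in p53-null and 1.51 and 1.38 in double-null skin, against −0.86 and −0.70 in control and −0.83 and −0.89 in pRb-null skin. The double-null arrays were highest, and the effect was 1.64 ± 0.06 (SE, limma adjusted p = 0.019). Saa3, an acute phase protein, rose by 1.69 ± 0.16 (SE, limma adjusted p = 0.042). Tgfa had 1 of 3 probe sets separated each way.

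Mast cell genes were the list with the largest share separated higher. Of 20 probe sets for 16 genes, 9 (45.0%) were separated higher, against 5.98% of all probe sets with 1 symbol, 0 were separated lower, and 6 rose. The median effect was 1.16. Cma1, a chymase, scored 1.10 and 1.38 in p53-null and 0.47 and 0.55 in double-null skin, against −0.61 and −0.65 in control and −0.95 and −1.29 in pRb-null skin. Its 4 p53-deficient scores were positive and its 4 p53-intact scores negative. The effect was 1.75 ± 0.11 (SE, limma adjusted p = 0.027). Cpa3, the mast cell carboxypeptidase, scored 1.31 and 1.30 in p53-null and 0.65 and 0.22 in double-null skin, against −0.75 and −0.95 in control and −0.73 and −1.05 in pRb-null skin, an effect of 1.74 ± 0.14 (SE, limma adjusted p = 0.034).

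The p53-null arrays were above the double-null arrays in both genes. Hdc, which makes histamine, scored 1.11 and 0.94 in p53-null and 0.85 and 0.76 in double-null skin, against −0.90 and −0.71 in control and −0.73 and −1.32 in pRb-null skin on its called probe set, an effect of 1.83 ± 0.16 (SE, limma adjusted p = 0.04). Its second probe set was also separated higher, at 1.62 ± 0.29 (SE, limma adjusted p = 0.095). Srgn encodes serglycin, the proteoglycan that binds granule contents and is also made by other blood cells. It scored 0.96 and 1.24 in p53-null and 0.74 and 0.74 in double-null skin, against −0.92 and −0.80 in control and −1.15 and −0.80 in pRb-null skin, an effect of 1.84 ± 0.12 (SE, limma adjusted p = 0.027). The tryptases Tpsab1 and Tpsb2 rose by 1.55 ± 0.12 (SE, limma adjusted p = 0.034) and 1.64 ± 0.14 (SE, limma adjusted p = 0.035), the last on 1 of 2 probe sets. Mcpt4, another chymase, was separated higher at 1.74 without being called. Gata2, a transcription factor of mast cells and blood progenitors, was separated higher on 1 of 2 probe sets, at 1.44, and was not called either.

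The remaining 8 mast cell genes were not separated. Kit, the stem cell factor receptor also found on melanocytes, had 2 probe sets that were not separated, at effects of 0.92 and −0.17. In the first, both p53-null arrays were the highest of the 8, at 2.02 and 1.02, whereas the double-null arrays were at −0.58 and −0.62. The others were Fcer1a, Tph1, Mcpt1, Mcpt2, Mcpt8, Ms4a2 and Hs3st1, with effects from −1.28 to 1.09. Within skin without pRb, 11 of the 20 probe sets (55.0%) were higher in both double-null than in both pRb-null arrays, against 22.1% of all probe sets, and 9 of the 11 are the separated ones. With any 1 array left out, 0 were called.

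**Figure D3:**
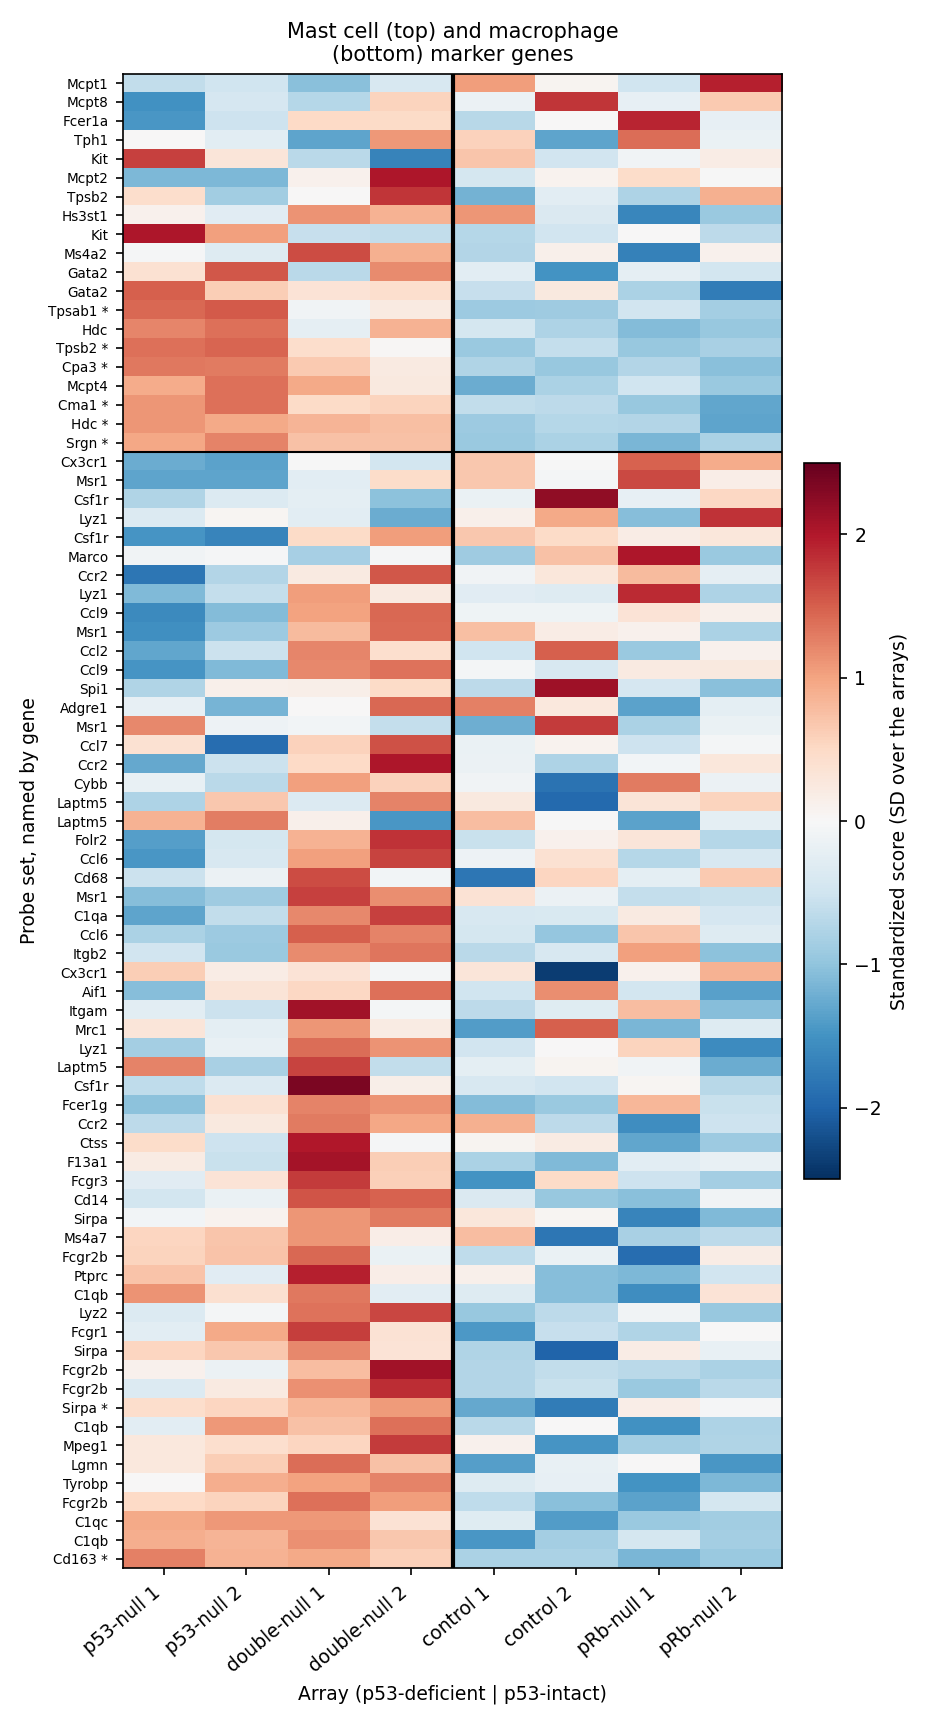
Standardized scores of every mast cell (top) and macrophage (bottom) probe set in the 8 arrays, p53-deficient arrays left of the vertical line and p53-intact arrays right of it. Red is above and blue below a probe set's mean, and a star marks a called probe set. The granule genes at the bottom of the upper block are red in all 4 p53-deficient arrays, whereas many macrophage rows are red mainly in the double-null arrays.

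Macrophage and myeloid genes were higher mainly where pRb was lost as well. Of 59 probe sets for 38 genes, 11 (18.6%) were separated higher and 1 (1.69%) lower, against 5.98% and 8.14% of all probe sets with 1 symbol, and 2 rose. In skin without pRb, 42 of the 59 (71.2%) were higher in both double-null than in both pRb-null arrays, against 22.1% of all probe sets. In skin with pRb, 17 (28.8%) were higher in both p53-null than in both control arrays, near the 23.8% of all probe sets. The median effect was 1.38 without pRb and 0.07 with it. The direct test of that difference had an unadjusted p under 0.05 with a higher effect without pRb for 12 of the 59 probe sets. It had a lower effect for 1, beside 4.46% higher and 6.01% lower of all probe sets. After adjustment, 0 probe sets of any list passed.

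Cd163, a scavenger receptor of tissue macrophages, behaved alike in both backgrounds. It scored 1.26 and 0.87 in p53-null and 0.94 and 0.59 in double-null skin, against −0.79 and −0.80 in control and −1.14 and −0.93 in pRb-null skin, an effect of 1.83 ± 0.14 (SE, limma adjusted p = 0.034). Its p53-deficient and p53-intact scores were of opposite sign throughout. Sirpa, an inhibitory receptor of myeloid cells, rose by 1.44 ± 0.14 (SE, limma adjusted p = 0.046) on 1 of 3 probe sets, and a second was separated higher. The complement genes C1qb and C1qc were separated higher at 1.78 and 1.74 on 1 probe set each, with adjusted p = 0.061 and 0.10 in limma's test. Tyrobp, an adaptor of myeloid receptors, gave 1.58. The lone member separated lower was 1 of 3 probe sets of Csf1r, the macrophage growth factor receptor.

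Antigen presentation and Langerhans cell genes had 1 of 27 probe sets (3.7%) separated higher and 2 (7.41%) lower. Over all probe sets with 1 symbol the shares were 5.98% and 8.14%. The 2 lower, Cd83 and Epcam, gave effects of −1.55 and −1.60 and were not called. The 1 higher was called. Cd74, the invariant chain of class II molecules, scored −0.05 and −0.22 in p53-null and 1.63 and 1.47 in double-null skin, against −0.88 and −0.88 in control and −0.58 and −0.50 in pRb-null skin, an effect of 1.42 ± 0.061 (SE, limma adjusted p = 0.02). The double-null arrays stood well above the rest, and the p53-null arrays just above the p53-intact ones. The list median was 1.03 without pRb and −0.51 with it. Interferon response genes showed medians of 0.52 and −0.54 in the same order, with 1 of 54 probe sets (1.85%) separated higher and 2 (3.7%) lower.

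Other tissues in the skin sample varied without a shared direction, and their part in the lists above was not tested. The shares below stand against 5.98% separated higher and 8.14% lower over all probe sets with 1 symbol. Adipocyte genes had 2 of 37 probe sets (5.41%) separated higher, near that background, and 0 lower. Ucp1, the uncoupling protein of brown fat, scored 0.53 and 0.59 in p53-null and 1.35 and 1.12 in double-null skin, against −0.78 and −0.74 in control and −1.01 and −1.06 in pRb-null skin, an effect of 1.79 ± 0.063 (SE, limma adjusted p = 0.018). It was the adipocyte gene that rose, and its p53-deficient arrays were all positive. The median of the adipocyte list was −0.22, and −0.52 with 1 probe set per gene. Its p53-null scores were mostly low (array medians −1.18 and −1.07) and its double-null scores high (1.00 and 0.86), against −0.32 and −0.35 in control arrays and 0.67 and 0.52 in pRb-null arrays.

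Skeletal muscle genes gave 5 of 59 probe sets (8.47%) separated higher and 7 (11.9%) lower, and 4 rose and 1 fell. Myh1, a fast myosin, fell by 1.71 ± 0.075 (SE, limma adjusted p = 0.02), whereas Ucp3, a mitochondrial uncoupling protein homologue, and Chrnd, an acetylcholine receptor subunit, rose by 1.51 ± 0.098 (SE, limma adjusted p = 0.027) and 1.52 ± 0.14 (SE, limma adjusted p = 0.042). The second probe set of Ucp3 was not separated, at 0.65. Tpm2 had 1 of 4 probe sets separated each way. Melanocyte genes were separated lower in 4 of 27 probe sets (14.8%) and higher in 0. Their median was −1.60 without pRb and −0.08 with it. Slc45a2, Trpm1 and Mc1r were the members, and none was called.

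Nerve and Schwann cell genes were separated lower in 6 of 39 probe sets (15.4%), 4 of which belong to Mbp, myelin basic protein. The called Mbp probe set scored −0.99 and −1.02 in p53-null and −0.59 and −0.68 in double-null skin, against 1.33 and 1.51 in control and 0.13 and 0.30 in pRb-null skin, an effect of −1.64 ± 0.066 (SE, limma adjusted p = 0.019). The control arrays were highest and the pRb-null arrays intermediate. The other 4 Mbp probe sets were not separated. Fibroblast genes were separated higher in 5 of 64 probe sets (7.81%), and Mfap5, a microfibril protein, rose on 1 of 2 by 1.52 ± 0.15 (SE, limma adjusted p = 0.045). Endothelial genes were separated higher in 5 of 27 (18.5%) and lower in 2 (7.41%), with 0 called. Sebaceous genes were separated lower in 3 of 17 (17.6%) and erythroid genes in 2 of 25 (8.0%). T cell and lymphocyte genes were separated higher in 1 of 45 (2.22%) and lower in 3 (6.67%), and the neutrophil list's lone separated member of 13 probe sets was S100a8.

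Probe sets of the p53 target lists were separated at shares near those of all probe sets with 1 symbol, 8.14% lower and 5.98% higher. Of 34 probe sets for arrest and feedback genes, 3 (8.82%) were separated lower and 0 higher. The 3 came from only 2 genes, Cdkn1a with 1 and Ccnd2, a promoter of G1 described below. Of 46 for apoptosis and stress genes, 4 (8.70%) were separated lower and 2 (4.35%) higher. The medians were 0.08 and −0.12, against −0.11 over all probe sets with 1 symbol. Cdkn1a, which encodes the cell cycle inhibitor p21, scored −1.72 and −0.98 in p53-null and −0.40 and −0.09 in double-null skin, against 1.07 and 1.12 in control and 0.58 and 0.41 in pRb-null skin on 1 probe set. All p53-deficient arrays were lower, and those with pRb were the lowest. The effect was −1.59 ± 0.21 (SE, limma adjusted p = 0.064), which missed the threshold. Its second probe set did not follow, at 0.96 ± 0.15 (SE, limma adjusted p = 0.081), with both double-null arrays the highest of the 8 at 1.67 and 1.42.

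Mdm2, which encodes the ligase that degrades p53, gave effects of 0.36 and 0.10 on 2 probe sets, neither separated. Ccng1, a cyclin induced by p53, gave −0.03, 1.28 and 0.33 on 3. Btg2, an antiproliferative gene, gave −1.14 and −1.30. These 3 genes were picked after their values were seen, as the best known unseparated targets. The one called member of the arrest list was 1 of 7 probe sets of Ccnd2, which encodes cyclin D2 and drives rather than stops G1. Its called probe set fell by 1.68 ± 0.15 (SE, limma adjusted p = 0.041). Siva1, of the apoptosis pathway, was separated lower on 2 of 4 probe sets, at −1.43 and −1.61, and Apaf1, the apoptosome scaffold, higher on 1 of 2, at 1.62.

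Cell cycle genes showed little that was common to the 4 p53-deficient arrays. Of 98 mitosis probe sets, 9 (9.18%) were separated higher and 3 (3.06%) lower, and of 113 E2F target probe sets, 2 (1.77%) higher and 5 (4.42%) lower, against the same 5.98% and 8.14%. In both lists 0 were called by limma's ordinary test and 0 by its moderated test. The mitosis median was 0.49 in skin with pRb and −0.78 without it. The direct test of that difference had an unadjusted p under 0.05 with a lower effect without pRb for 22 of 98 probe sets and a higher effect for 1, beside 6.01% and 4.46% of all probe sets, but 0 were called. Pttg1, securin, and Kif20a, a mitotic kinesin, were separated higher at 1.64 and 1.63, whereas Mki67, the proliferation antigen, was separated lower at −1.47. The 2 other Pttg1 probe sets were not separated, at −0.72 and 0.15.

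Genes of protein synthesis and respiration were lower in more members than the background. Ribosomal protein genes were separated lower in 18 of 95 probe sets (18.9%) and higher in 0, against 8.14% and 5.98%, and 3 fell. Their median was −0.80, but with 1 probe set for each of 44 genes it was −0.12, beside −0.13 over all probe sets of that fit, while 18.2% were separated lower. Rps18 scored 0.23 and −0.11 in p53-null and −1.63 and −1.40 in double-null skin, against 0.98 and 0.92 in control and 0.51 and 0.49 in pRb-null skin on its called probe set, an effect of −1.45 ± 0.1 (SE, limma adjusted p = 0.031). The double-null arrays were clearly lower than the others, and the p53-null arrays only slightly lower than the p53-intact ones. In all, 4 of 6 Rps18 probe sets were separated lower. Without the second pRb-null array, 28.4% of the list was separated lower, a share that leaving out an array cannot reduce.

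Oxidative phosphorylation genes were separated lower in 27 of 145 probe sets (18.6%) and higher in 7, and 0 were called. Their median was −0.59, and −0.32 with 1 probe set for each of 74 genes, of which 18.9% were separated lower. Ndufa2, Ndufa3 and Ndufa5 of complex I were separated lower at −1.79, −1.76 and −1.73, whereas Ndufs4 of the same complex was separated higher at 1.80 on 1 of 3 probe sets. The other 2 gave −0.39 and −0.69 and were not separated. Uqcrb and Uqcrc2 of complex III had probe sets separated in both directions. Immediate early and stress genes were separated lower in 9 of 60 probe sets (15.0%) and higher in 1. Junb, an AP-1 subunit, scored −1.05 and −1.36 in p53-null and −0.67 and −0.42 in double-null skin, against 0.68 and 0.47 in control and 1.18 and 1.16 in pRb-null skin, an effect of −1.75 ± 0.11 (SE, limma adjusted p = 0.027). Egr2, a zinc finger factor of the early response, fell by 1.72 ± 0.17 (SE, limma adjusted p = 0.049) on 1 of 2 probe sets. In the Wnt, Hedgehog and Notch list, 6 of 91 probe sets (6.59%) were separated lower and 2 higher, and Dvl1, a Wnt pathway scaffold, rose by 1.73 ± 0.15 (SE, limma adjusted p = 0.035) on 1 of 2 probe sets.

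Probe sets of 1 gene were also compared. Of 12394 genes, 1068 had separated probe sets only in the higher direction and 1442 only in the lower, while 55 had them in both. Among 4958 genes with 2 or more probe sets, 81 had at least 2 separated higher and none lower, and 134 at least 2 separated lower and none higher. In 83 genes every probe set was separated the same way. Capzb, an actin capping subunit, had 3 of 4 probe sets separated higher, the called one at 1.81 ± 0.15 (SE, limma adjusted p = 0.034). Recql, a DNA helicase, rose by 1.79 ± 0.11 (SE, limma adjusted p = 0.027), and its 2 other probe sets gave 1.73, separated, and 1.14, not separated. Lipa, the lysosomal acid lipase, rose by 1.79 ± 0.16 (SE, limma adjusted p = 0.039) on 1 of 3 probe sets, and a second was separated higher.

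Among genes lower on several probe sets, Eprs, a bifunctional aminoacyl-tRNA synthetase, had 3 separated, the called one at −1.77 ± 0.15 (SE, limma adjusted p = 0.038). Efnb1, an ephrin ligand, Huwe1, a ubiquitin ligase, and Sox5, a transcription factor, had 2 of 3, 2 of 3 and 2 of 4 separated, 1 of them called in each gene, at −1.74, −1.68 and −1.80. Adgrg1, an adhesion receptor, fell on 2 probe sets, by 1.76 and 1.69. The single probe sets with the most extreme effects were Yipf4 at −1.85, Mcl1 at −1.84, Asph at 1.85 and Srgn at 1.84. They were picked by effect size, and any other probe sets of Yipf4, Mcl1 and Asph are not described here. Mcl1, an antiapoptotic BCL2 relative, scored −1.12 and −0.59 in p53-null and −1.18 and −0.78 in double-null skin, against 0.96 and 0.90 in control and 0.85 and 0.96 in pRb-null skin. The 2 sets of 4 arrays were far apart on this Mcl1 probe set, at an adjusted p of 0.042 in limma's test. Asph, an aspartate hydroxylase, scored 0.86 and 1.19 in p53-null and 0.85 and 0.80 in double-null skin, against −0.79 and −1.09 in control and −0.98 and −0.83 in pRb-null skin. All its p53-deficient arrays were positive.

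The p53 effect was also measured separately with and without pRb, in pairs of genotypes that share no array. Scores were standardized over all 8 arrays, so the pairs are not wholly independent. In skin with pRb, 27 probe sets were called (0.119%), 8 higher and 19 (0.0837%) lower in p53-null than in control skin. In skin without pRb, 92 were called (0.405%), 34 higher and 58 lower in double-null than in pRb-null skin. The unadjusted p was under 0.05 for 3314 and 4213 probe sets. Both pairs were separated in the same direction for 4767 probe sets (21.0%) and in opposite directions for 1639 (7.22%). Over all probe sets the differences correlated at r = 0.268, which describes values that share a standardization.

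The test of the difference between backgrounds called 0 probe sets in limma's ordinary test and 0 in its moderated test, with 2377 (10.5%) and 2251 at an unadjusted p under 0.05. The 5 smallest p belonged to Usp19, Slurp1, Fscn1, Ptprf and Bbox1, all at an adjusted p of 0.096. Fscn1, an actin bundling protein, scored 1.08 and 1.03 in p53-null and −0.12 and −0.06 in double-null skin, against −1.47 and −1.44 in control and 0.37 and 0.62 in pRb-null skin. The p53 effect was 2.51 with pRb and −0.58 without it. Slurp1, a secreted keratinocyte peptide, scored −1.46 and −1.61 in p53-null and 0.98 and 1.00 in double-null skin, against 0.37 and 0.26 in control and 0.27 and 0.19 in pRb-null skin, with effects of −1.85 with pRb and 0.76 without it.

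**Figure D4:**
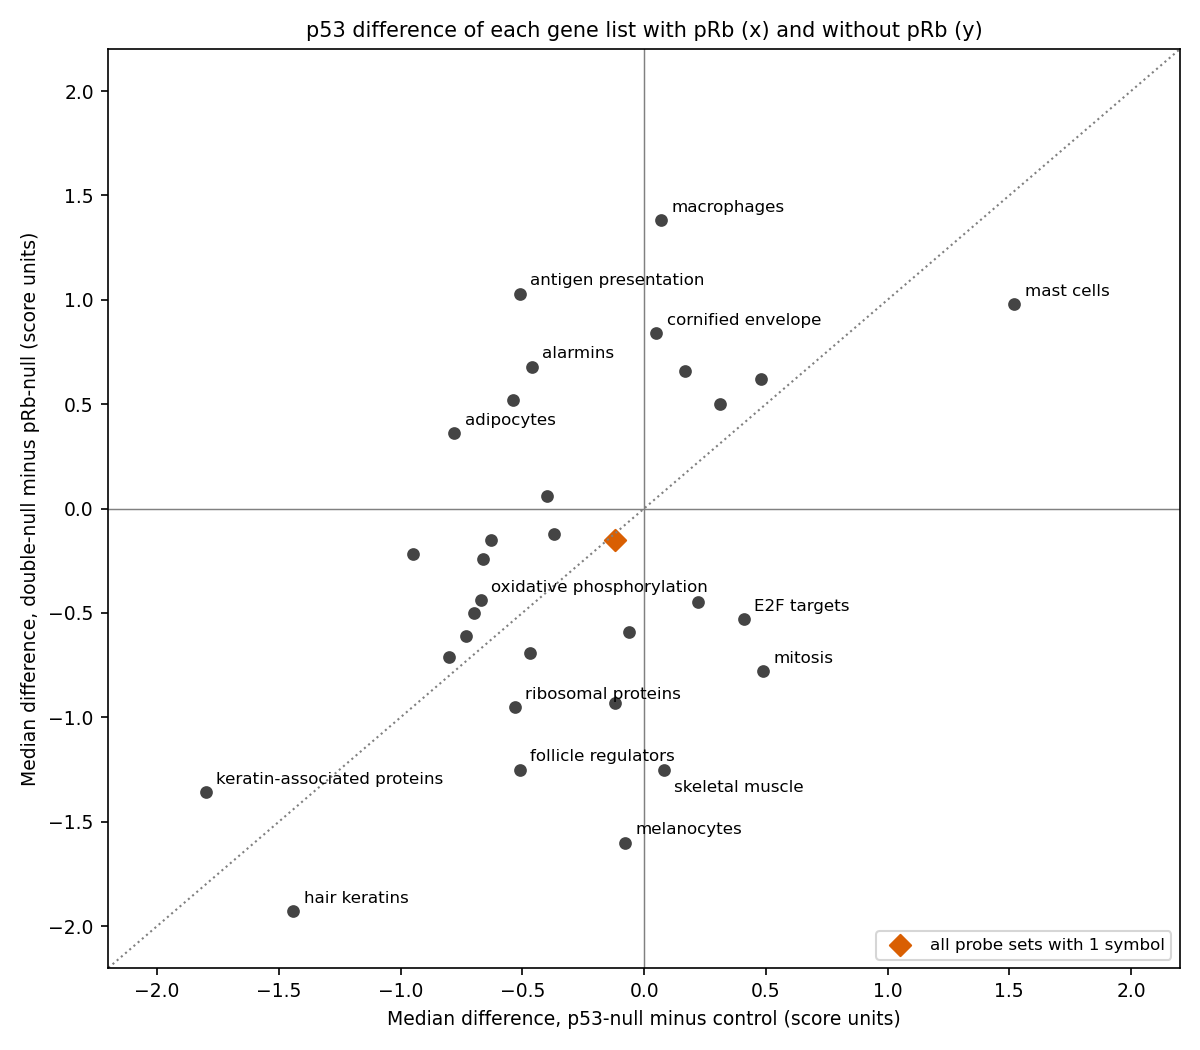
Median p53 difference of each gene list in skin with pRb (p53-null minus control, x axis) against skin without pRb (double-null minus pRb-null, y axis), in score units. The diamond is the median of all probe sets with 1 symbol (−0.12 and −0.15), and the dotted line marks equal differences. Hair lists lie at the lower left and mast cells at the upper right, whereas macrophage, antigen presentation and adipocyte lists are higher without pRb and mitosis, melanocyte and muscle lists are lower there.

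By chromosome, the shares separated lower were highest on chromosome 15 (11.1%), which holds type II keratins, and chromosome 16 (10.6%), which holds most keratin-associated proteins measured. Without the hair genes they were 10.4% and 8.64%. Of 724 probe sets on chromosome 16, 25 were called, and 12 without the hair genes. Chromosome 11, which carries the type I keratins, had 34 called of 1712, and 24 without the hair genes.

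Separation has a sharp edge that the values do not have. Among probe sets higher in p53-deficient skin, Trim26 was separated by 0.00043 and Rbbp6 missed by 0.00074, with effects of 1.34 and 1.29. Among those lower, Tgm1 was separated by 0.00071 and Dhx58 missed by 0.00011, with effects of −1.48 and −1.34.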

How the data were processed

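Total RNA from whole skin was hybridized to Affymetrix arrays, and RMA is the tool that the submitters' processing notes name, without a version. The deposited values are standardized scores (mean 0, SD 1 per probe set within 1e-06 in all 22690 probe sets). It is unknown whether logarithms were taken first. Since this removes the array intensities, no filter on dim probe sets was possible, and the number of arrays limits the precision.

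Symbols came from the platform annotation: 20393 probe sets had 1 symbol, 691 several and 1606 none, and 20364 were matched by Entrez number to RefSeq's table for GRCm38.p6. Lists were counted over probe sets with 1 symbol. limma 3.58.1 (R 4.3.3) fitted 1 mean per genotype to all 8 arrays, with Benjamini-Hochberg adjustment over all probe sets. The unmoderated statistic was used because standardized rows tie variances together. The fit was tested on simulated data. The members and all 31 gene lists were chosen with earlier results of these data known.

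Named genes were Rb1, up to 4 separated members per list and direction with the smallest p, up to 2 members separated both ways, 10 genes per direction with several separated probe sets, 5 single probe sets per direction, and the 5 smallest p for the difference between pRb backgrounds. Other members named to complete a count, and Kit, Mdm2, Ccng1, Btg2, Sox9, Lgr5, Dlx3, Foxn1, Eda and C1qc, were chosen after their values were seen. Alternatives were moderation, quantile normalization, array medians set to 0, a replicate block, an additive model, 2 groups of 4 arrays, 1 probe set or the mean per gene, and each array left out. The 2 arrays of a genotype carry numbers that give only 2 per group, with nothing tying them across genotypes, so they were not treated as pairs. Trp53 was not analysed here. Tables and plots used Python 3.11.15, pandas 2.3.3 and matplotlib 3.10.9.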

Additional observations from a re-analysis of the deposited data

Results flagged for a closer look

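Of 432 sets of 4 arrays behind the 216 named probe sets, 10 held 1 array far from the other 3, and chance flags about 1 in 20 such sets. In p53-deficient skin, Igf1 scored 1.74 in the first double-null array, against 0.33 to 0.41 in the other 3. Asph scored 1.19 in the second p53-null array, against 0.80 to 0.86. Ndufa3 scored −1.66 in the second p53-null array, against −0.61 to −0.51. Cox5b scored 1.66 in the second double-null array, against 0.49 to 0.67. Pole scored −1.39 in the first p53-null array, against −0.63 to −0.58. In p53-intact skin, 3 genes stood apart in the first pRb-null array: Bst2 at 1.98 against 0.16 to 0.23, Tpsab1 at −0.47 against −0.91 to −0.84, and Krt2 at 1.47 against 0.57 to 0.71. Chrna1 scored −1.51 in the second pRb-null array, against −0.65 to −0.61. A probe set of Mbp scored 1.49 in the second control array, against 0.65 to 0.75.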

How the results depend on the processing

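The count of called probe sets for the averaged p53 effect, 285 with 38.6% of them higher, was 0 with limma's moderated statistic, 17 with quantile normalization (52.9% higher), 108 with 2 groups of 4 arrays and 3 to 9 with any 1 array left out. It was 203 with array medians set to 0, 193 in an additive model and 195 with 1 probe set per gene. With the replicate number as a replicate block it was 0, with 4353 probe sets at an unadjusted p under 0.05. In skin with pRb the 27 calls became 0 with moderation, quantile normalization or the block, 5 with array medians set to 0, 17 with 1 probe set per gene and 0 to 5 with an array left out. In skin without pRb the 92 calls became 0 with moderation or the block, 1 with quantile normalization and 0 to 6 with an array left out. The difference between backgrounds had 0 calls in every fit except 0 to 1 with an array left out. The cause of these losses was not tested, and fits with fewer residual degrees of freedom have less power by construction.

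Probe sets separated over all 8 arrays stay separated when an array is left out, so the shares below could only stay or rise with fewer arrays and do not measure stability. The percentage separated higher was 5.89, and 7.03 to 8.70 with an array left out. The percentage lower was 8.14, and 9.21 to 13, the last without the second double-null array. Within skin with pRb and without it, where 2 arrays face 2 and separation is easier by construction, the percentages were 23.8 and 22.1 higher and 28.9 and 28.1 lower. The same 2 settings gave 28.8 and 71.2 higher for macrophages, 46.3 and 43.2 lower for ribosomal proteins, 44.1 and 30.3 for oxidative phosphorylation and 53.7 and 50.0 for barrier lipids. Follicle regulators gave 60.0 without pRb. With an array left out the ranges were 90.9 to 90.9 for hair keratins, 74.1 to 77.8 for keratin-associated proteins, 33.3 to 38.3 for follicle regulators, 45.0 to 50.0 for mast cells, 18.6 to 23.7 for macrophages, 18.9 to 28.4 for ribosomal proteins, 18.6 to 24.1 for oxidative phosphorylation and 20.4 to 27.8 for barrier lipids. Of 3138 values for 216 named probe sets, 790 lost their call and 23 gained one. List medians moved with 1 probe set per gene for ribosomal proteins (−0.12, against −0.80), oxidative phosphorylation (−0.32, against −0.59) and barrier lipids (−0.35, against −0.65), whereas their shares separated lower were 18.2, 18.9 and 27.6.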
